A study of Mus musculus with 16 samples.

Results

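The CC chemokine genes Ccl2, Ccl7, Ccl8, Ccl12, Ccl17 and Ccl22 were described in donor T cells recovered from the ovary or the spleen of transplanted mice. They are 6 of the 20972 gene symbols that the array's probes could be matched to, and each had 1 probe. The 6 were chosen by their measured levels in ovarian against splenic cells on these same arrays, where some of them stood high. Their ovary against spleen differences are therefore given as a description with no test. Tests are given only for other comparisons. Where these hold arrays that the choice used, they are not independent of it.

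Ovarian graft-versus-host disease is the attack of an allogeneic graft's T cells on the recipient's ovary. All samples came from female mice of C57BL/6 background, and all cells were donor T cells sorted in 2 rounds. The 6 groups were CD8+ cells from the ovary after allogeneic haematopoietic stem cell transplantation (4 arrays), CD8+ cells from the spleen after allogeneic transplantation (3 arrays), CD8+ cells from the spleen after syngeneic transplantation (3 arrays), and CD4+ cells from the same 3 sources (2 arrays each). The ovary after syngeneic transplantation was not analysed here, so no ovarian group has a syngeneic counterpart. The recipients' strain, the conditioning and the day of recovery are not given in the sources used here. Whether replicate arrays stand for different animals is not in the labels, and the p-values cover the spread between arrays, which may be technical.

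CC chemokines are small secreted proteins that draw leukocytes along a gradient by binding G-protein-coupled receptors on them. CCL2, CCL7 and, in rodents, CCL12 act on CCR2, the receptor through which monocytes leave the bone marrow and enter inflamed tissue. Mouse CCL8 acts on CCR8, and CCL17 and CCL22 are the ligands of CCR4, a receptor of T helper 2 and regulatory T cells and of skin-homing T cells. Monocytes, macrophages and stromal cells are well-known sources of the CCR2 ligands, and dendritic cells of the CCR4 ligands.

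In the mouse genome Ccl2, Ccl7, Ccl11, Ccl12, Ccl8 and Ccl1 follow one another in that order on chromosome 11, and Ccl22, Cx3cl1 and Ccl17 on chromosome 8. Promoter windows of 300 bases were held by the RefSeq table for 4 of the 6 genes, from 250 bases before the transcription start to 50 bases after it (build GRCm38.p6, plus strand). They are shown because Ccl12 and Ccl8 are neighbours whose levels followed each other across arrays, whereas Ccl17 and Ccl22 are near neighbours of which only Ccl17 was measured above background. Capitals mark every match, on either strand, to 6 motifs, and no matches overlapped. The kappa B form searched was GGG, then any 5 bases, then CC. The STAT forms were TTC, then any 3 or any 4 bases, then GAA. The AP-1 motif was TGANTCA and the TATA box was TATAAA. The interferon-regulatory factor motif was GAAA, then any 2 bases, then the same 4 letters again.
Ccl12 promoter, chr11:82101595-82101894: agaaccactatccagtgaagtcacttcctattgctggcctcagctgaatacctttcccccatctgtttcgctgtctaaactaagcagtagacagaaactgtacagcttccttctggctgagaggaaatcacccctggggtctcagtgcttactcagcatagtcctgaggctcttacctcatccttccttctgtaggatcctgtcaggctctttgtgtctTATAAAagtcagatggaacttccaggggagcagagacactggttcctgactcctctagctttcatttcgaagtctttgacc
Ccl8 promoter, chr11:82114935-82115234: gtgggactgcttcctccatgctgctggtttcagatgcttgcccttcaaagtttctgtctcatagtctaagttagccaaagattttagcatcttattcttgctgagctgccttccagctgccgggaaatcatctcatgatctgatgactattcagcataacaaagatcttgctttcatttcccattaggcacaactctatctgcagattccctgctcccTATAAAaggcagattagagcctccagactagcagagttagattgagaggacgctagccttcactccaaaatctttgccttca
Ccl17 promoter, chr8:94810203-94810502: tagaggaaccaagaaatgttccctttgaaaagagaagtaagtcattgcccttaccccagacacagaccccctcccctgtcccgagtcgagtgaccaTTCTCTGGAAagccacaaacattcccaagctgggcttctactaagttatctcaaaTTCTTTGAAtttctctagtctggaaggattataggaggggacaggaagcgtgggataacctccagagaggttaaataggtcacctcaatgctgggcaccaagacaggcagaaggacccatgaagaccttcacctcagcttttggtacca
Ccl22 promoter, chr8:94745434-94745733: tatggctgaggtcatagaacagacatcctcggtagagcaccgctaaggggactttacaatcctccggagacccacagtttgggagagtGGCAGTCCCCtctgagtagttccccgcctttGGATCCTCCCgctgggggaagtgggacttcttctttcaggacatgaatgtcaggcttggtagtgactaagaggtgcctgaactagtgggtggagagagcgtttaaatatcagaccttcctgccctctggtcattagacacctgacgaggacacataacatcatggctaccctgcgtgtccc

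The Ccl12 and Ccl8 windows each held 1 TATAAA, starting 31 and 32 bases before the start site, a motif held by 13.6% of the 32851 promoter windows of the table. The Ccl17 window held 1 match to the STAT form with 4 bases between and 1 to the form with 3, which were found in 6.95% and 8.30% of all windows. The Ccl22 window held 2 minus-strand matches to the kappa B form, which was present in 50.8% of all windows. No window of the 4 held the AP-1 or the interferon-regulatory factor motif, which 7.81% and 3.44% of all windows held. In pairwise alignment Ccl8 and Ccl12 shared 54.9% of bases, against 43.3% to 49.4% in the other pairs. These matches are letters in a window and say nothing of binding.

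Levels below are log2 processed signals relative to each array's 75th percentile, so 0 is the brightness that 3 in 4 probes of that array did not exceed. A level called "below background" came from a spot, or from spots of which most were, not called well above background by Agilent's software, and has only an upper bound. Against a group with such arrays a fold is given as "at least", computed with each of them at the lowest signal well above background on that array or at its own value, whichever is higher. Levels of different genes come from different probes and are not set against each other. Arrays differed in brightness, with a 75th percentile of 67.6 to 450 units, and 41.8% to 59.4% of their spots were called well above background. No member's spot was saturated. The dimmest arrays were ovarian CD4 replicate 2 and allogeneic splenic CD4 replicate 2. Arrays of 1 group correlated with r between 0.938 and 0.996 across features, which are not independent replicates. The 8 T-cell genes of the marker list were above background on every array, and Cd8a on every CD8 array and no CD4 array. The other sort markers were less clean. Cd4 was above background on every CD8 array too. Cd8b1 was above background on 1 of 2 ovarian and 2 of 2 allogeneic splenic CD4 arrays. Its level was at least 259-fold higher in ovarian CD8 than in ovarian CD4 cells. In bulk samples such as these, fewer cells of a type and less RNA per cell cannot be told apart.

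Ovarian cells of both subsets had 5 of the 6 chemokines above background, Ccl17 on 1 of 2 CD4 arrays and the rest on every array, and ovarian CD4 cells carried the CCR2 ligands at the highest levels of any group. For Ccl2, Ccl7, Ccl8, Ccl12 and Ccl17, every ovarian array had a measured value above every allogeneic splenic array of the same subset, in CD8 and in CD4 cells alike. For Ccl17 in CD4 cells that order is not established, because the lower ovarian array was below background and the higher splenic one was not. Over all features, arrays were that cleanly separated in either direction for 12.6% in CD8 cells (7.28% with the ovary higher) and 33.7% in CD4 cells (15.7% with the ovary higher), and by the fitted test 0.539% and 0.907% of features differed between ovary and allogeneic spleen. The 6 genes were picked for these differences, so nothing is read from their count. Ccl22 stayed below background on all 16 arrays.

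**Figure D1:**
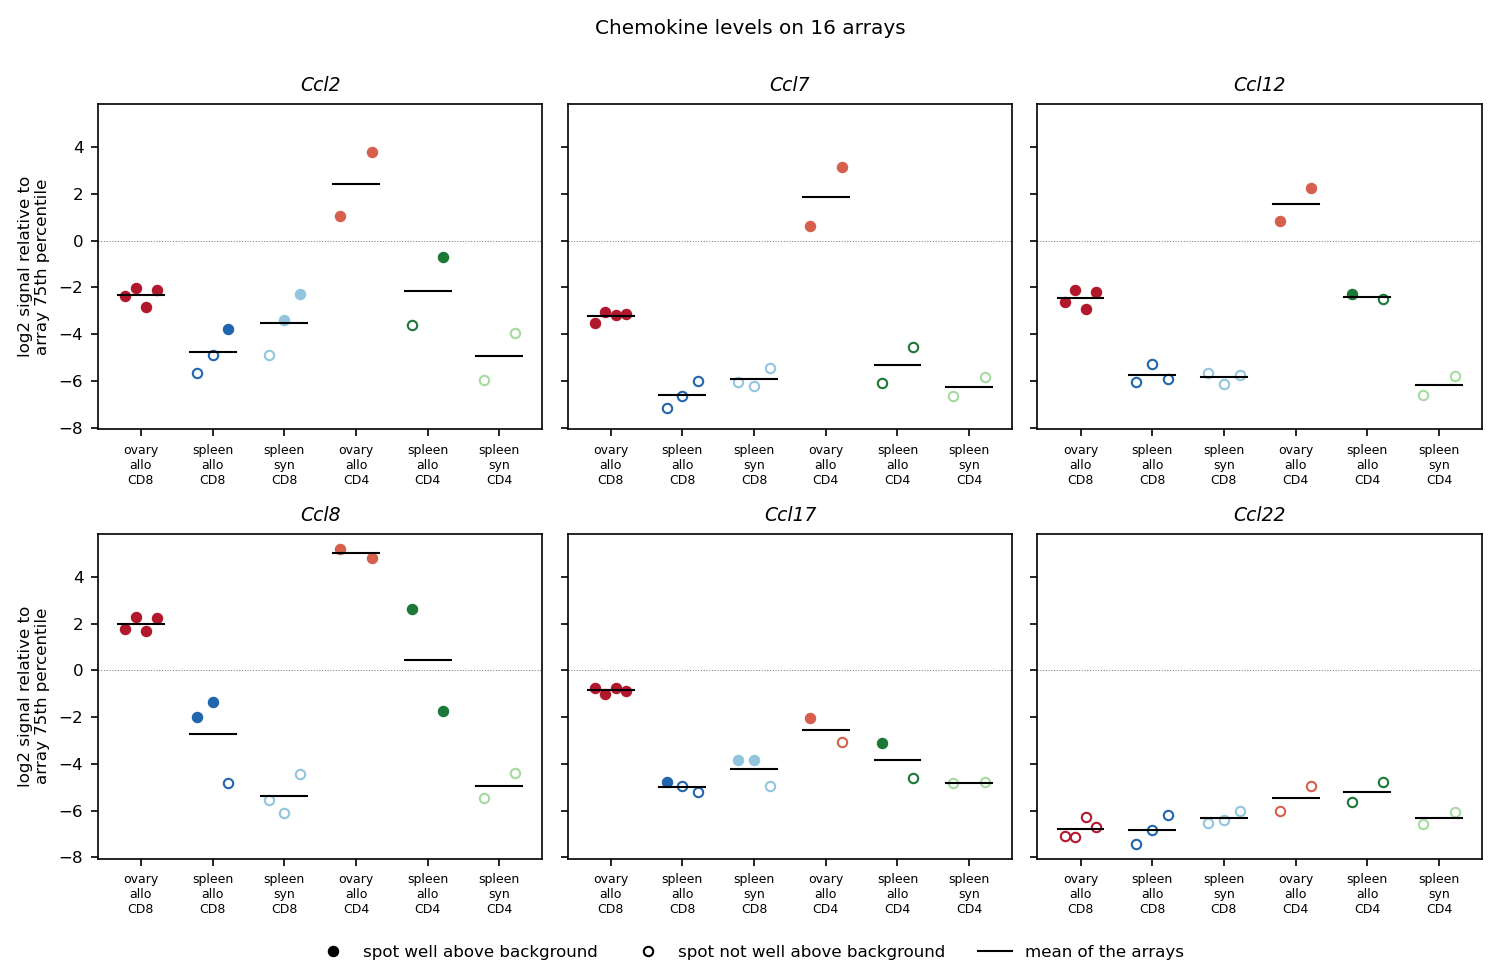
Level of each chemokine on every array (log2 signal relative to the array's 75th percentile), with 1 point per array, filled where the spot was well above background and hollow where it was not, and a line at the group mean. Ovarian CD4 cells stand highest for Ccl2, Ccl7, Ccl12 and Ccl8, ovarian CD8 cells stand highest for Ccl17, and all 16 points of Ccl22 are hollow.

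Ccl2 encodes CCL2, the classical monocyte attractant and main ligand of CCR2. In ovarian CD8 cells its levels were -2.38, -2.01, -2.82 and -2.11, against -5.65 (below background), -4.91 (below background) and -3.77 in allogeneic splenic CD8 cells. Syngeneic splenic CD8 cells had -4.89 (below background), -3.39 and -2.29. All 4 ovarian CD8 arrays thus lay above the 3 allogeneic splenic ones but overlapped the highest syngeneic one. In ovarian CD4 cells the levels were 1.04 and 3.81, against -3.63 (below background) and -0.68 in allogeneic splenic CD4 cells and -5.95 and -3.94 (both below background) in syngeneic splenic CD4 cells. Both ovarian CD4 arrays were above the other 14 arrays, yet they differed from each other by more than the 4 ovarian CD8 arrays did. In order of level, ovarian CD4 cells averaged 2.42 ± 1.96 (SD, n = 2), allogeneic splenic CD4 cells -2.15 ± 2.08 (n = 2) and ovarian CD8 cells -2.33 ± 0.36 (n = 4). The other 3 splenic groups averaged between -4.94 and -3.52, and below ovarian CD4 cells each group overlapped the next. As a description, the ovarian mean was at least 4.73-fold the allogeneic splenic mean in CD8 cells, where 1 of 3 splenic arrays was above background, and at least 23.9-fold in CD4 cells, where 1 of 2 was. In CD4 cells the fold of the measured means lay between 8.60 (without splenic replicate 1) and 66.3 (without splenic replicate 2) when 1 array was left out, and it was 9.16 without ovarian replicate 2 and 62.3 without ovarian replicate 1.

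The Ccl2 probe was printed as 10 spots on each array, which gives a measure of the error within an array. On ovarian CD4 replicate 1 the usable spots ran from 0.89 to 1.12 and on replicate 2 from 3.73 to 3.85. Their ranges were narrow and far apart, so the gap between these replicates was larger than the error between spots. In ovarian CD8 cells the spot SD was between 0.12 and 0.16 on the 4 arrays. Where the level was below background the spots scattered widely, with an SD of 0.74 on syngeneic splenic CD4 replicate 1. On allogeneic splenic CD4 replicate 2 all 10 spots were well above background, whereas 2 of 9 usable spots were on replicate 1.

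**Figure D2:**
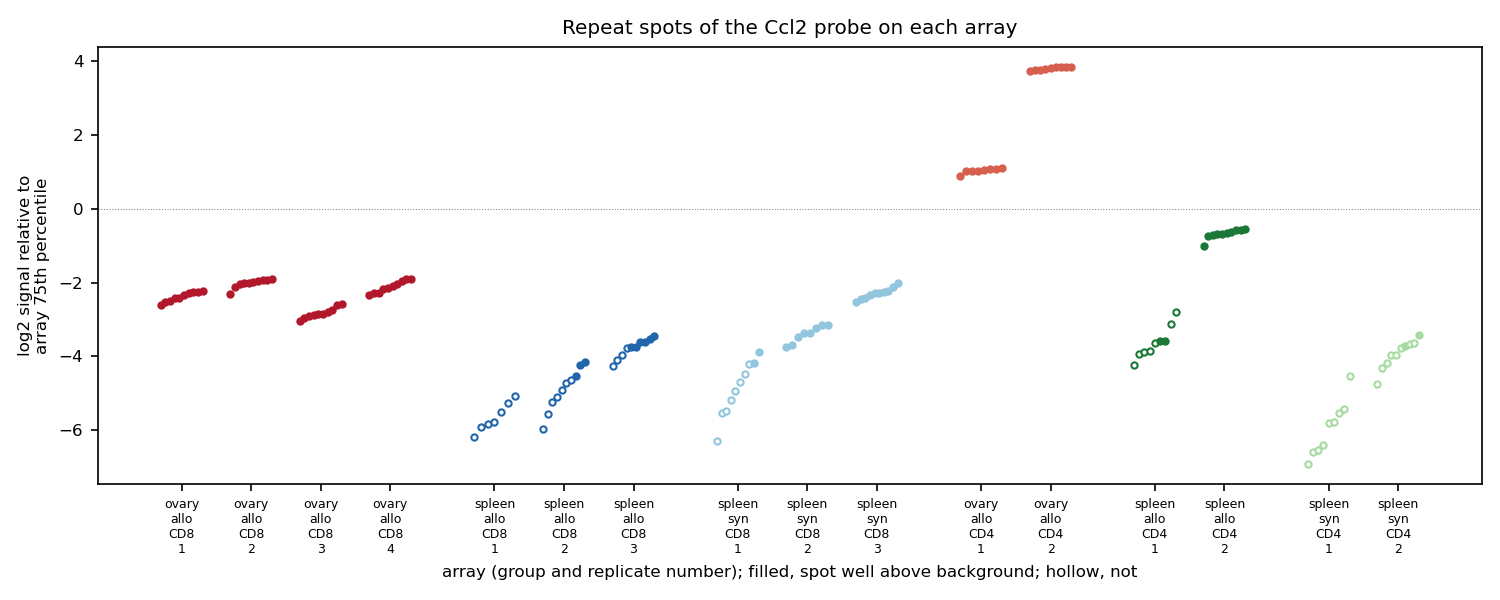
Repeat spots of the Ccl2 probe on each of the 16 arrays, after removal of outlier spots (log2 signal relative to the array's 75th percentile; filled, well above background; hollow, not). Spots of ovarian CD4 replicate 2 lie between 3.73 and 3.85 and those of replicate 1 between 0.89 and 1.12, and where the level was below background the spots spread over more than 1 log2 unit.

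Ccl7 encodes CCL7, a second monocyte-attracting ligand of CCR2. Ovarian CD8 cells showed levels of -3.53, -3.05, -3.18 and -3.12, all well above background. Ovarian CD4 cells had 0.61 and 3.16. All 10 splenic arrays, whatever the subset and transplant, were below background for Ccl7, with measured values between -7.17 and -4.56. Ovarian CD4 cells averaged 1.89 ± 1.81 (SD, n = 2) and ovarian CD8 cells -3.22 ± 0.21 (n = 4), neither overlapping another group. Among the 6 chemokines it was therefore the gene detected in ovarian groups and in no splenic array. The ovarian mean was at least 2.67-fold the allogeneic splenic bound in CD8 cells and at least 34.5-fold in CD4 cells. In CD4 cells the log2 difference of the measured means, 7.22, ran from 5.94 without ovarian replicate 2 to 8.50 without ovarian replicate 1.

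Ccl12 encodes CCL12, a CCR2 ligand known from rodents. Its levels were -2.62, -2.10, -2.91 and -2.20 in ovarian CD8 cells, against -6.04, -5.27 and -5.93 in allogeneic splenic CD8 cells, all 3 below background. They were 0.86 and 2.27 in ovarian CD4 cells, against -2.28 and -2.51 (the second below background) in allogeneic splenic CD4 cells. The 5 syngeneic splenic arrays were all below background, with values between -6.60 and -5.68. In order of level, ovarian CD4 cells came first and did not overlap any other group, while allogeneic splenic CD4 cells and ovarian CD8 cells overlapped each other. The ovarian mean was at least 4.54-fold the splenic bound in CD8 cells and at least 15.5-fold the splenic mean in CD4 cells. In CD4 cells the fold of the measured means was 9.58 without ovarian replicate 2 and 25.4 without ovarian replicate 1.

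Ccl8 encodes CCL8, in the mouse an attractant of CCR8-bearing T cells. In ovarian CD8 cells its levels were 1.76, 2.30, 1.68 and 2.25, against -1.98, -1.34 and -4.84 (the last below background) in allogeneic splenic CD8 cells. In ovarian CD4 cells they were 5.22 and 4.82, against 2.63 and -1.73 in allogeneic splenic CD4 cells. All 5 syngeneic splenic arrays were below background, between -6.10 and -4.41. The ovarian groups were tight, with an SD of 0.32 in CD8 cells (n = 4) and 0.28 in CD4 cells (n = 2), but the allogeneic splenic groups were not, with an SD of 1.86 (n = 3) and 3.08 (n = 2). Ovarian CD8 cells overlapped allogeneic splenic CD4 cells, whose replicate 1 was above all 4 of them. The ovarian mean was at least 21.5-fold the allogeneic splenic mean in CD8 cells and 23.8-fold in CD4 cells. Single splenic arrays decided the size of both. In CD8 cells the fold of the measured means was 12.6 without splenic replicate 3, the array below background, and 42.4 without splenic replicate 2. In CD4 cells it was 5.25 without splenic replicate 2 and 108 without splenic replicate 1.

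Ccl17 encodes CCL17, a ligand of CCR4. Its highest group was ovarian CD8 cells, with levels of -0.74, -0.99, -0.77 and -0.86, against -4.79, -4.94 and -5.20 in allogeneic splenic CD8 cells (the last 2 below background). Ovarian CD4 cells had -2.04 and -3.06, the second below background, against -3.11 and -4.59 in allogeneic splenic CD4 cells, again with the second below background. Syngeneic splenic CD8 cells had -3.85, -3.85 and -4.95 (the last below background), and both syngeneic splenic CD4 arrays were below background at -4.84 and -4.78. The ovarian CD8 arrays did not overlap any other group, while the order of the ovarian and the allogeneic splenic CD4 arrays is not established. The ovarian mean was at least 12.4-fold the splenic mean in CD8 cells, and in CD4 cells no fold is given, with 1 of 2 arrays above background in each group.

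Ccl22 encodes CCL22, the other ligand of CCR4. No array had it well above background, and its values lay between -7.43 and -4.76 over the 16 arrays. It was left out of the tests by the filter, which asked that at least 1 group have the probe well above background on all of its arrays. The other 5 genes passed it, and of those 5 none was above background on all 16 arrays.

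Within the ovary the subsets differed. This comparison was not the one for which the genes had been picked, but it uses the same ovarian arrays and is not independent of the choice. Ccl7, Ccl12 and Ccl2 were lower in ovarian CD8 cells than in ovarian CD4 cells and Ccl17 was higher. By limma's moderated test over all 22831 features, 4 of the 5 members tested passed an adjusted p of 0.05, 3 of them lower and 1 higher, in a comparison in which 17.5% of all features did, 9.04% lower and 8.47% higher. Ccl7 was 34.5-fold lower in ovarian CD8 cells (log2 difference -5.11 ± 0.61 SE, adjusted p = 0.000253), Ccl12 was 16.3-fold lower (-4.02 ± 0.39, adjusted p = 5.24e-05) and Ccl2 was 27.0-fold lower (-4.75 ± 0.99, adjusted p = 0.00747). Ccl17 was at least 2.87-fold higher in ovarian CD8 cells (1.71 ± 0.41, adjusted p = 0.0149), with 1 of the 2 ovarian CD4 arrays above background. It had entered the tests only through ovarian CD8 cells, the 1 group with it above background on every array, so its call is not independent of the filter and the count of 4 is no support. With no filter on dim probes its adjusted p was 0.0298. Ccl8 had a difference of -3.02 ± 1.08, which did not pass (adjusted p = 0.0742), although both of its ovarian CD4 arrays stood above all 4 ovarian CD8 arrays. With quantile normalization Ccl17 did not pass (1.92, adjusted p = 0.0815). The call also rested on ovarian CD4 replicate 2 for Ccl2 and Ccl17, which without that array had differences of -3.37 (adjusted p = 0.118) and 1.19 (adjusted p = 0.196). Ccl7 and Ccl12 passed without either ovarian CD4 array, but their size moved, to -3.83 and -3.32 without replicate 2 and to -6.39 and -4.73 without replicate 1.

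The arrays lay on 2 slides, each holding all 6 groups, and the direction of these differences held on both. With the slide as a block the 4 calls stood, and Ccl8 passed too (-3.02, adjusted p = 0.0484). Each slide held 1 array of each CD4 group, so values within a slide are given as differences with no test. Within slide 1 they were -3.90 for Ccl7, -3.23 for Ccl12, -3.24 for Ccl2 and 1.17 for Ccl17. Within slide 2 they were -6.32, -4.82, -6.27 and 2.25 in the same order.

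Monocyte and macrophage markers moved with this comparison. Of the 15 markers tested, 14 were lower in ovarian CD8 cells than in ovarian CD4 cells and 0 were higher. Of all features 9.04% were lower and 8.47% higher. The median log2 difference was -3.85 against 0.07 over all features. C1qb, a complement subunit made by macrophages, was 10.7-fold lower (-3.42 ± 0.31, adjusted p = 3.56e-05). Apoe, a lipid carrier, was 14.5-fold lower (-3.85 ± 0.38, adjusted p = 6.64e-05), Lyz2, lysozyme of myeloid cells, at least 14.4-fold lower (-3.85 ± 0.44, adjusted p = 0.00019) and Ms4a7, a membrane protein of macrophages, 13.5-fold lower (-3.75 ± 0.55, adjusted p = 0.00102). The summed level of the 16 markers on the array (linear, in units of the 75th percentile) ran from 50.3 to 75.6 in ovarian CD8 cells and from 140 to 264 in ovarian CD4 cells. Cd163, a scavenger receptor of tissue macrophages, was below background in both, whereas between 13 and 15 markers were above background on the ovarian CD8 arrays and 15 on both ovarian CD4 arrays. Dendritic-cell markers were lower in ovarian CD8 cells for 5 of 13, among them Cd74, the invariant chain of class II molecules (8.35-fold lower, adjusted p = 0.000757), and higher for 1, Itgax (5.39-fold, adjusted p = 0.0242). The part of these cells in the chemokine differences was not tested.

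**Figure D3:**
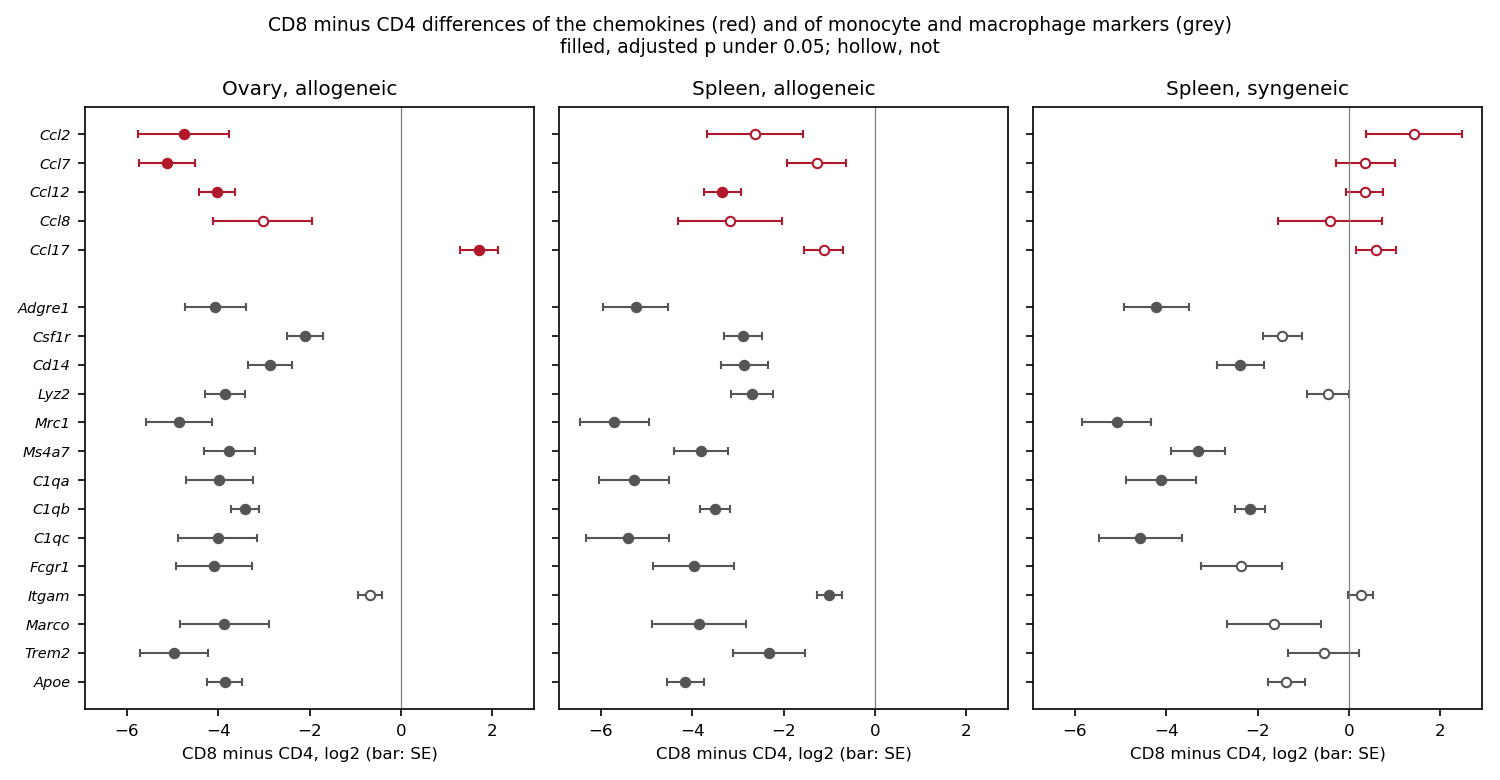
Log2 difference, CD8 minus CD4, with its SE, for the 5 chemokines tested (red) and 14 of the monocyte and macrophage markers (grey), in the ovary and the spleen after allogeneic transplantation and in the spleen after syngeneic transplantation; filled points passed an adjusted p of 0.05. In the ovary 3 chemokines and 13 markers lie left of 0 with filled points and Ccl17 lies right of it, and in the syngeneic spleen all 5 chemokine points are hollow while 7 markers are filled.

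The same subset contrast in the allogeneic spleen gave 1 call among the 5 members, where 29.4% of all features were called and 14.3% were lower in CD8 cells. Ccl12 was lower in CD8 than in CD4 cells (-3.35 ± 0.41, adjusted p = 0.000187), with 0 of 3 CD8 arrays and 1 of 2 CD4 arrays above background. No fold is given for it, because the CD4 mean holds a value with only an upper bound. Differences of Ccl8 (-3.17 ± 1.14, adjusted p = 0.0542), Ccl2 (-2.62 ± 1.04, adjusted p = 0.0763) and Ccl17 (-1.12 ± 0.43, adjusted p = 0.0677) did not pass, and for Ccl7 both groups were below background. Macrophage markers were lower in CD8 cells for 15 of 15 there. With the slide as a block 4 members passed in place of 1: Ccl2 (-2.36, adjusted p = 0.0236), Ccl8 (-3.34, adjusted p = 0.0315) and Ccl17 (-1.20, adjusted p = 0.0284) besides Ccl12 (-3.33, adjusted p = 0.000292). Within slide 1 the difference of Ccl12 was -3.37 and within slide 2 it was -3.41. Both groups were below background for Ccl12 on slide 2, so no direction is read from that value. The Ccl12 call ended with normexp and quantile normalization (-0.72, adjusted p = 0.0751) and with the common lowest signal for all arrays (-0.11, adjusted p = 0.916).

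In the syngeneic spleen 0 of 5 members were called between CD8 and CD4 cells, where 4.14% of all features were, and 0 had an unadjusted p under 0.05. Ccl2 had a difference of 1.42 ± 1.04 (adjusted p = 0.657) and Ccl17 one of 0.59 ± 0.43 (adjusted p = 0.653), both with 2 of 3 CD8 arrays and 0 of 2 CD4 arrays above background. Ccl7, Ccl8 and Ccl12 were below background in both groups. At the same time 8 of 15 macrophage markers were lower in CD8 cells and 0 higher.

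Transplantation into an allogeneic recipient could be compared with the syngeneic control only in the spleen. In CD4 cells Ccl8 and Ccl12 were higher after allogeneic transplantation, 2 of the 5 members tested, where 16.1% of all features were called and 10.4% were higher. Ccl8 was at least 25.7-fold higher (5.38 ± 1.25, adjusted p = 0.0132), with both allogeneic and neither syngeneic array above background. Ccl12 was higher by a measured difference of 3.80 ± 0.45 (adjusted p = 0.000218), with 1 of 2 allogeneic arrays above background. No fold is given for it, because the allogeneic mean holds a value with only an upper bound. The other differences were 2.79 ± 1.14 for Ccl2 (adjusted p = 0.120) and 0.96 ± 0.47 for Ccl17 (adjusted p = 0.194), and Ccl7 was below background in both groups. The Ccl8 call was lost without allogeneic replicate 1 (3.20, adjusted p = 0.0823) or without syngeneic replicate 1 (4.85, adjusted p = 0.102). Raising every array to 1 common lowest signal ended both calls, leaving 2.95 for Ccl8 (adjusted p = 0.0691) and 0.11 for Ccl12 (adjusted p = 0.969), since the syngeneic values of both genes lay below it. With normexp background correction and quantile normalization Ccl12 had 0.82 (adjusted p = 0.0815).

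With the slide as a block the difference in splenic CD4 cells was 5.38 for Ccl8 (adjusted p = 0.00831) and 3.80 for Ccl12 (adjusted p = 0.000328), and Ccl2 passed as well (2.79, adjusted p = 0.0249). Within a slide 1 allogeneic array stood against 1 syngeneic array. Slide 1 gave a difference of 8.08 for Ccl8 and 4.32 for Ccl12, and slide 2 gave 2.68 for Ccl8 and 3.27 for Ccl12. The direction of Ccl8 was the same on both slides. Of the allogeneic arrays the one with the higher Ccl8 level (2.63) lay on slide 1 and the other (-1.73) on slide 2. For Ccl12 both slide 2 values were below background, so no direction is read from them. Of the macrophage markers 2 of 15 were higher in allogeneic CD4 cells, among them C1qb (3.70-fold, adjusted p = 0.00426), and 0 lower. That count is near the share over all features, of which 10.4% were higher. Their summed level was 160 to 209 in allogeneic splenic CD4 cells and 80.4 to 111 in syngeneic splenic CD4 cells, and their part in the chemokine values was not tested.

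In splenic CD8 cells 0 of the 5 members passed between allogeneic and syngeneic transplantation, although 38.4% of all features did. One of the 5, Ccl8, had an unadjusted p under 0.05, with a difference of 2.63 ± 1.02 and an adjusted p of 0.0590. It was above background on 2 of 3 allogeneic and 0 of 3 syngeneic arrays. No fold is given for it, because the allogeneic mean holds a value with only an upper bound. Ccl2 had a difference of -1.25 ± 0.93 (adjusted p = 0.307) and Ccl17 one of -0.76 ± 0.39 (adjusted p = 0.140), while Ccl7 and Ccl12 were below background in both groups. Without allogeneic replicate 3, the array on which Ccl8 was below background, its difference was 3.69 and passed (adjusted p = 0.0103). Within slide 1, with 2 allogeneic arrays against 1 syngeneic array, the differences were 3.88 for Ccl8 and -1.01 for Ccl17, with no test. Of the 15 macrophage markers 3 were lower in allogeneic CD8 cells and 0 higher.

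Whether the transplant effect in the spleen differed between the subsets was tested with an interaction term. Of the 5 members 1 passed, Ccl12 (CD8 effect minus CD4 effect -3.69 ± 0.57, adjusted p = 0.00270), where 11.9% of all features were called, 6.68% of all features with a negative term. Its 6 splenic CD8 arrays and both syngeneic splenic CD4 arrays were below background. The term thus rests on the 2 allogeneic CD4 arrays, of which 1 was above background, against values with upper bounds. The terms of Ccl2 (-4.04 ± 1.48, adjusted p = 0.0945) and Ccl17 (-1.72 ± 0.61, adjusted p = 0.0875) did not pass, nor did those of Ccl7 and Ccl8.

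The receptors of these chemokines were read on the T cells themselves, and those named here are part of a list of which 6 of 8 genes were tested. In allogeneic splenic CD8 cells 3 of the 6 tested were higher than in syngeneic ones, Ccr2 and Ccr8 among them. The decoy receptor gene Ackr2 was the 1 lower. In allogeneic splenic CD4 cells 2 were higher, Ccr8 among them, and 1 was lower, Ackr2. Of all features 38.4% passed in CD8 and 16.1% in CD4 cells, in either direction. Ccr1 and Ackr1 did not pass the filter, and Ccr1 was below background on all 16 arrays.

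Ccr2, the receptor of CCL2, CCL7 and CCL12, had levels of 2.43, 2.38, 2.28 and 2.38 in ovarian CD8 cells, against 1.48, 1.35 and 0.64 in allogeneic and -1.32, -1.03 and 0.28 in syngeneic splenic CD8 cells. In CD4 cells they were 2.71 and 2.42 in the ovary, against 2.23 and 1.21 in the allogeneic and 0.82 and 1.18 in the syngeneic spleen. The ovarian arrays of each subset stood above the splenic ones without overlap. In splenic CD8 cells the allogeneic over syngeneic difference passed (3.59-fold, 1.84 ± 0.38, adjusted p = 0.00236). The ovary against allogeneic spleen difference did not, with 1.21 ± 0.36 in CD8 cells (adjusted p = 0.241) and 0.85 ± 0.47 in CD4 cells (adjusted p = 0.418). Between ovarian CD8 and CD4 cells it was -0.20 ± 0.41 (adjusted p = 0.777).

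Ccr4, the receptor of CCL17 and CCL22, was below background on all 4 ovarian CD8 arrays and had levels of 0.38 and -0.39 in ovarian CD4 cells. It was at least 23.9-fold lower in ovarian CD8 than in ovarian CD4 cells (-5.42 ± 0.78, adjusted p = 0.000907). The subset with the higher Ccl17 was thus the one whose Ccr4 was below background. Ccr4 had entered the tests only through CD4 groups, in ovary and spleen, so its call is not independent of the filter. In the spleen its levels were 0.28 and -0.94 in allogeneic and 0.39 and 0.14 in syngeneic CD4 cells, while 3 of the 6 splenic CD8 arrays were above background.

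Ccr8, the receptor of mouse CCL8, had levels between -2.97 and -2.32 in ovarian CD8 cells, against -0.78 and -1.20 in ovarian CD4 cells. It was 3.03-fold lower in ovarian CD8 cells (-1.60 ± 0.28, adjusted p = 0.00267). In the spleen it was at least 3.21-fold higher in allogeneic than in syngeneic CD8 cells (3.04 ± 0.26, adjusted p = 2.44e-06), where all 3 syngeneic arrays were below background. In CD4 cells the allogeneic level was at least 4.22-fold higher (2.16 ± 0.32, adjusted p = 0.000916). Ccr3, another receptor that binds CCL7, was 2.75-fold lower in ovarian CD8 than in ovarian CD4 cells (-1.46 ± 0.27, adjusted p = 0.00427) and 3.30-fold lower in ovarian than in allogeneic splenic CD4 cells (-1.72, adjusted p = 0.0288).

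**Figure D4:**
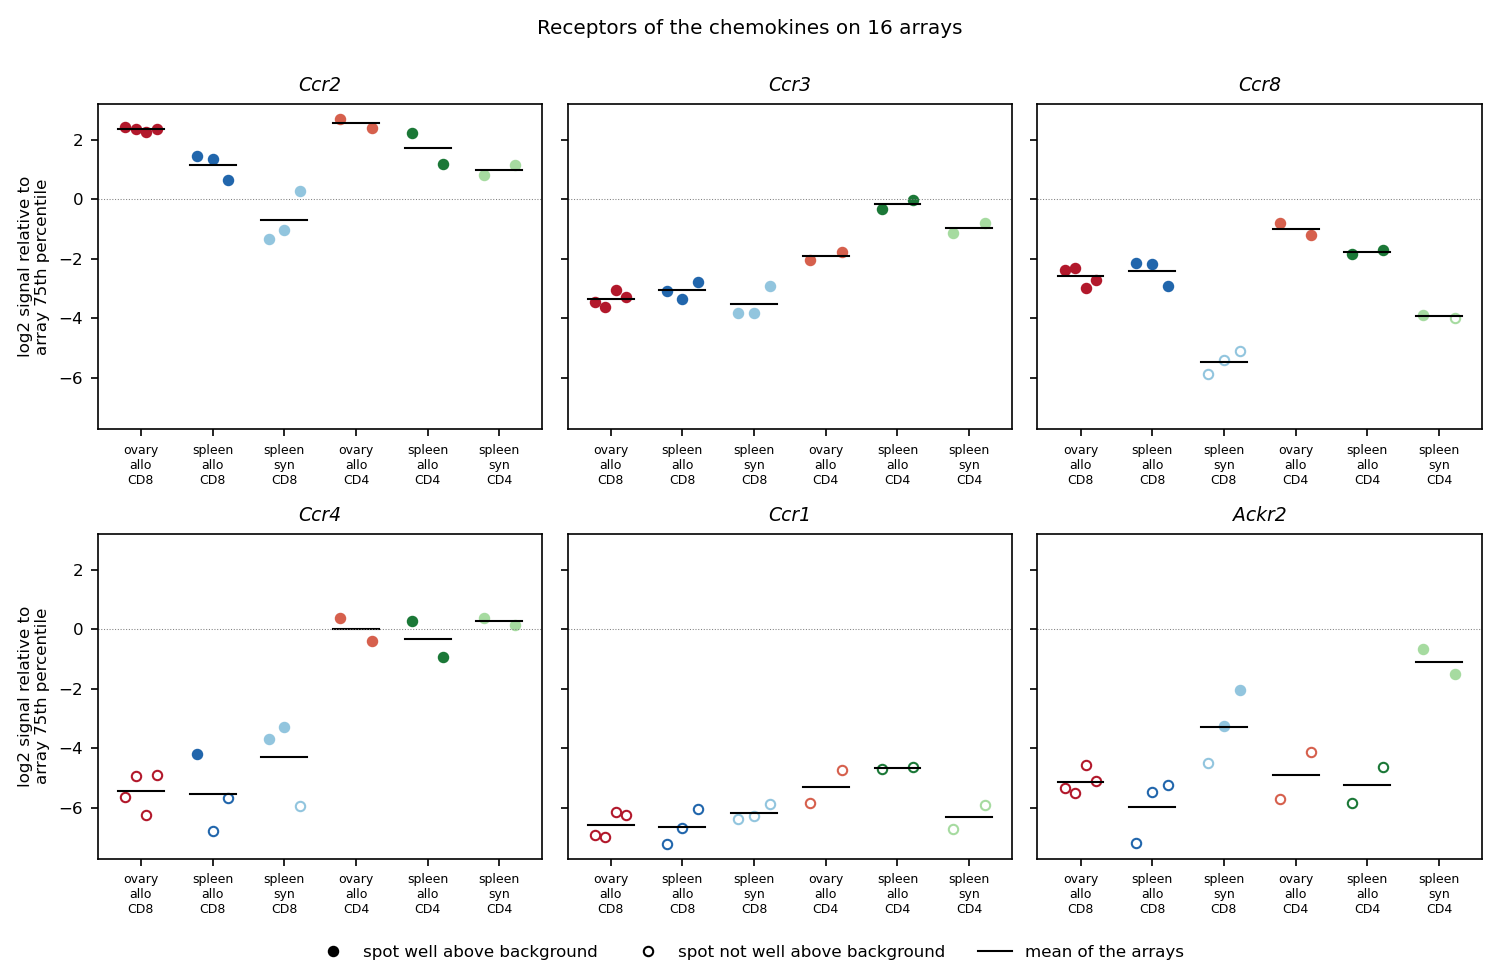
Level of Ccr2, Ccr3, Ccr8, Ccr4, Ccr1 and Ackr2 on every array (log2 signal relative to the array's 75th percentile; filled, well above background; hollow, not; line, group mean). Ccr2 stands highest in both ovarian groups, Ccr4 is filled on all 6 CD4 arrays and hollow on all 4 ovarian CD8 arrays, and Ccr1 is hollow throughout.

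Other inflammatory CC chemokines were higher in the allogeneic than in the syngeneic spleen for 5 of the 7 tested. Those 5 were Ccl1, Ccl3, Ccl4, Ccl5 and Ccl24 in CD8 and in CD4 cells alike. Of all features 38.4% passed in CD8 and 16.1% in CD4 cells, in either direction. Between ovary and allogeneic spleen 0 of the 7 passed limma's test in CD8 cells and 0 in CD4 cells, with 1 and 3 at an unadjusted p under 0.05. Ccl1, the neighbour of Ccl8 and a ligand of CCR8, had levels of 1.69, 1.29, 2.50 and 1.36 in ovarian CD8 cells, against -1.09, -0.18 and -0.76 in allogeneic splenic CD8 cells and values below background on all 3 syngeneic arrays. Its ovarian CD4 levels were 4.06 and 3.88, against 3.80 and 0.56 in the allogeneic spleen. The ovarian arrays were above the splenic ones without overlap in both subsets, but the differences of 2.38 ± 0.81 (adjusted p = 0.361) and 1.79 ± 1.05 (adjusted p = 0.454) did not pass.

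Between the ovarian subsets the other chemokines split. Ccl3 and Ccl4, chemokines made by activated T cells, were higher in ovarian CD8 than in ovarian CD4 cells, by 4.40-fold (2.14 ± 0.43, adjusted p = 0.00591) and 4.98-fold (2.32 ± 0.56, adjusted p = 0.0153). Ccl6 and Ccl9, CCR1 ligands of the mouse made by myeloid cells, were 11.6-fold (-3.53 ± 0.81, adjusted p = 0.0121) and 12.2-fold lower (-3.60 ± 0.74, adjusted p = 0.00676). Ccl24, an eosinophil attractant, was 9.58-fold lower (-3.26 ± 0.57, adjusted p = 0.00278). Ccl11 and Ccl20 were below background on every array. In allogeneic over syngeneic splenic CD4 cells, Ccl24 was 92.5-fold higher (6.53 ± 0.65, adjusted p = 7.70e-05) and Ccl1 at least 29.1-fold higher (5.55 ± 1.05, adjusted p = 0.00438). The syngeneic levels of Ccl1 were far apart, at -5.18 and -1.56, with 1 of 2 arrays above background. Of 3 homeostatic CC chemokines tested, 1 passed between ovary and allogeneic spleen, Ccl25, which was 2.24-fold lower in ovarian CD4 cells.

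**Figure D5:**
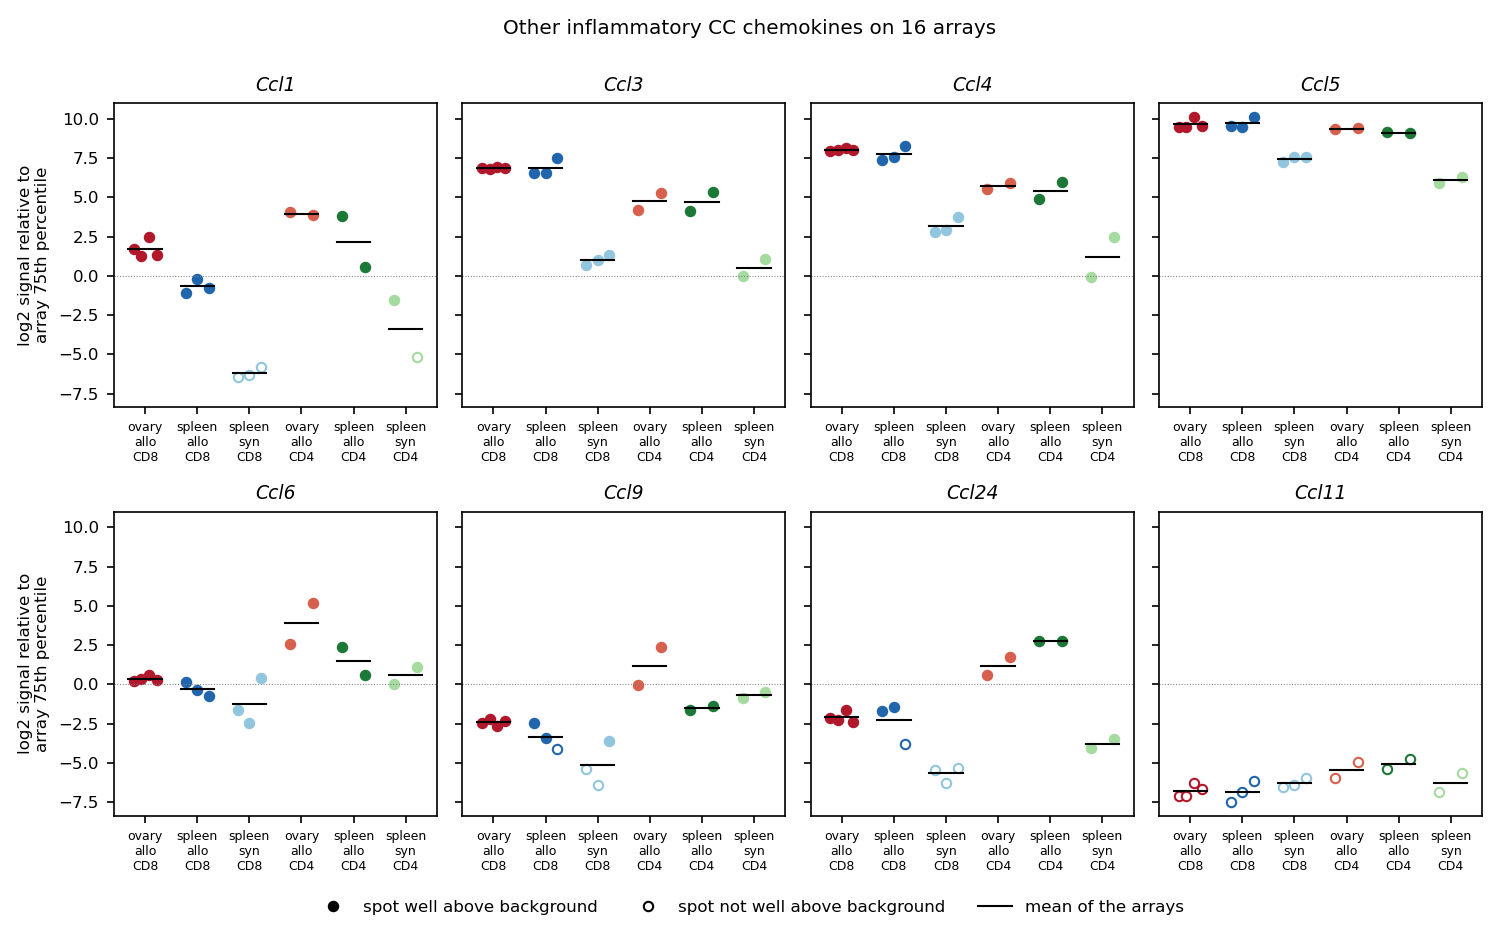
Level of 8 other inflammatory CC chemokines on every array (log2 signal relative to the array's 75th percentile; filled, well above background; hollow, not; line, group mean). Ccl1, Ccl3, Ccl4, Ccl5 and Ccl24 stand lower in the syngeneic spleen than in the allogeneic groups of the same subset, Ccl6 and Ccl9 stand higher in ovarian CD4 than in ovarian CD8 cells, and Ccl11 is hollow on all 16 arrays.

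Cytokines known to induce these chemokines in other cells were measured in the same T cells, with 9 of 12 tested. Il13, which induces CCR4 ligands in myeloid and epithelial cells, had levels of -2.74, -3.06, -1.78 and -2.86 in ovarian CD8 cells and was below background on all allogeneic splenic CD8 arrays. In CD4 cells its levels were 0.77 and 1.70 in the ovary, against 2 values below background in the allogeneic spleen. Ovarian over splenic Il13 was at least 4.08-fold higher in CD8 cells (3.35 ± 0.43, adjusted p = 0.00292) and at least 22.0-fold higher in CD4 cells (5.09 ± 0.56, adjusted p = 0.00367). Lta, encoding lymphotoxin alpha, was higher in the ovary too, by 2.02-fold in CD8 cells (1.02 ± 0.11, adjusted p = 0.00127) and 1.82-fold in CD4 cells (0.86 ± 0.15, adjusted p = 0.0241). The other 7 cytokines did not pass between ovary and spleen in either subset.

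Of the 9 cytokines 6 were lower in ovarian CD8 than in ovarian CD4 cells and 0 higher, where 9.04% of all features were lower. Ifng did not pass, but its mean was higher in ovarian CD8 cells (7.28 against 6.21). The summed level of the list was 109 to 265 in ovarian CD8 and 55.9 to 147 in ovarian CD4 cells. Il13 was 14.4-fold lower (-3.85 ± 0.48, adjusted p = 0.000347), Il4 at least 10.2-fold lower (-4.74, adjusted p = 0.000609) and Il6 at least 10.4-fold lower (-5.06, adjusted p = 0.000947), and Lta, Csf2 and Tnf were lower as well. Il4 and Il6 had entered the tests only through CD4 groups, in ovary and spleen. Their calls, and the count that holds them, are thus not independent of the filter. In the allogeneic against the syngeneic spleen Csf2 and Ifng were higher in each subset, while Lta was lower in each, Tnf lower in CD8 cells and Il4 5.26-fold lower in CD4 cells. Of 11 receptors and factors upstream of these genes, 0 passed limma's test between ovary and spleen in either subset, with 0 at an unadjusted p under 0.05 in CD8 cells and 1 in CD4 cells. Of the same 11, 5 were lower in ovarian CD8 than in ovarian CD4 cells, among them Il1rl1, the receptor of interleukin 33 (5.55-fold), and Gata3 (1.99-fold). Of 3 chemokine-modifying enzymes tested, Qpct, which cyclises the N-terminus of CCL2, was 3.05-fold higher in ovarian CD8 than in ovarian CD4 cells and at least 2.38-fold higher in ovarian than in allogeneic splenic CD4 cells.

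Markers of other cells in the ovary and spleen were measured beside the chemokines. Between ovary and allogeneic spleen, 1 of 15 macrophage markers was higher in CD8 cells, Apoe (3.39-fold, 1.76, adjusted p = 0.0440). In CD4 cells 1 of 15 was, Trem2 (at least 20.8-fold, 4.88, adjusted p = 0.0251). Of all features 0.539% and 0.907% passed. By limma's test 7 of the 15 in CD8 cells and 3 in CD4 cells had an unadjusted p under 0.05. Of all 22831 features 1897 and 3576 did. The markers' median log2 difference was 0.67 in CD8 and 0.57 in CD4 cells, against 0.03 and -0.04 over all features. The summed macrophage level was 50.3 to 75.6 in ovarian and 40.1 to 58.7 in allogeneic splenic CD8 cells, and 140 to 264 in ovarian and 160 to 209 in allogeneic splenic CD4 cells. These ranges overlapped in both subsets, but a linear sum is weighted to the brightest genes of a list. Cd163 was below background in every group and Trem2 in every splenic group.

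Markers of steroid-making theca and luteal cells were higher in the ovary for 3 of 6 tested in CD8 cells and 2 of 6 in CD4 cells. Beside this list and those below, 0.539% of all features passed in CD8 and 0.907% in CD4 cells, in either direction. Hsd3b1, an enzyme of steroid synthesis, was at least 19.7-fold higher in ovarian CD8 cells (6.30, adjusted p = 0.000183) and at least 15.1-fold higher in ovarian CD4 cells (5.62, adjusted p = 0.00367). Cyp11a1, which starts steroid synthesis, was at least 3.85-fold higher in ovarian CD8 cells (3.78, adjusted p = 0.0138). The luteinizing hormone receptor gene Lhcgr was below background in every group. The summed level of this list overlapped between ovary and spleen. It was 11.0 to 20.0 in ovarian and 1.16 to 23.6 in allogeneic splenic CD8 cells. In CD4 cells it was 17.6 to 19.0 in the ovary and 11.7 to 26.8 in the allogeneic spleen. In syngeneic splenic CD8 cells, where Hsd3b1 and Cyp11a1 were below background, it was 14.8 to 38.8. The sum thus does not follow these genes, and nothing is read from its overlap.

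Among 7 granulosa-cell markers tested, Wt1 was higher in the ovary in both subsets, at least 1.31-fold in CD8 cells (2.48, adjusted p = 0.00582) and at least 1.94-fold in CD4 cells (2.99, adjusted p = 0.0138), and Nr5a2 was 7.94-fold higher in ovarian CD4 cells (2.99, adjusted p = 0.0208). The defining marker Amh was below background in every group. The summed granulosa level was 19.5 to 23.7 in ovarian and 20.0 to 21.3 in allogeneic splenic CD8 cells. In CD4 cells it was 32.3 to 32.5 in the ovary and 24.6 to 27.1 in the allogeneic spleen. On allogeneic splenic arrays of either subset 2 to 4 of the 10 genes were above background, so nothing is read from these sums. Of 5 stromal markers 1 was higher in CD8 cells (Mgp, at least 5.02-fold) and 1 lower in CD4 cells (Dcn), and of 3 endothelial markers 0 passed limma's test or had an unadjusted p under 0.05. B-cell markers were lower in the ovary for 2 of 7 in CD8 cells and 3 of 7 in CD4 cells. Trem2, Hsd3b1, Cyp11a1, Wt1 and Mgp were below background in every splenic group. They entered the tests only through ovarian cells, so their calls between ovary and spleen are not independent of the filter. Wt1 was above background on 2 of 4 ovarian CD8 arrays. Whether RNA of any of these cells contributed to the chemokine levels was not tested.

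The levels of the 3 CCR2 ligands followed each other across the 16 arrays, and Ccl8 followed Ccl12 most closely. As a description, Pearson's r was 0.932 between Ccl2 and Ccl7, 0.923 between Ccl7 and Ccl12, 0.916 between Ccl8 and Ccl12 and 0.891 between Ccl2 and Ccl12. It was 0.679 between Ccl8 and Ccl2, 0.774 between Ccl8 and Ccl7, and between 0.385 and 0.724 for Ccl17 with each of the others. The 16 points share arrays, groups and values below background, so they are not independent. Among all named features the level nearest to Ccl2 and to Ccl7 was that of Dab2 (r = 0.959 and 0.964), an endocytic adaptor, with Trem2, Wt1 and each other among the 5 nearest of both. Nearest to Ccl12 was Cp, encoding ceruloplasmin (r = 0.956), followed by Dab2, Wt1, Lztfl1 and Ccl7, and nearest to Ccl8 were Tspan31 and Furin (r = 0.935 each). Nearest to Ccl17 were Cmtm7 (r = 0.896) and Me1 (r = 0.893), and its 5 nearest genes also held Hsd3b1 (r = 0.850). Dab2 was above background on both ovarian CD4 arrays, on 1 of 4 ovarian CD8 arrays and on 0 of 10 splenic arrays.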

How the data were processed

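The members and all gene lists were chosen with earlier results of these data known. RNA of double-sorted cells was amplified, labelled with Cy3 and hybridised to 1-colour Agilent mouse arrays, per the labels. The deposited scanner files give processed signal intensity per spot, which Agilent's Feature Extraction software (version 11.5.1.1) had background-subtracted, per the file headers. The deposited series table holds log2 values that matched log2 processed signal minus the array's 75th percentile minus each probe's median (r at least 0.9998). Its column medians ran from -0.34 to 0.49. It served as a check only.

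From the intensities, control and outlier spots were left out, repeat spots averaged, log2 taken and the 75th percentile subtracted. Of 55681 probes, 27656 were named through RefSeq accessions (20972 symbols). A probe passed (31116 did) where at least 1 group had it well above background on all its arrays, and the brightest probe per gene was kept, which left 22831 features. One linear model over 6 groups was fitted with limma 3.58.1 in R 4.3.3, with p-values adjusted by Benjamini-Hochberg over all features (threshold 0.05). The model had 10 residual degrees of freedom and was tested on simulated data. From each list the text names up to 4 called genes with the smallest p, the members' receptors in any case, and the genes of counts of 5 or fewer, and it draws the genes most like a member from the 5 with the highest r. The number of arrays limits the precision. Background correction, normalization, filters, slides, array weights and left-out arrays were the alternatives. Sequences came from RefSeq (GRCm38.p6). Some genes of the lists are not reported here.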

Additional observations from a re-analysis of the deposited data

Results flagged for a closer look

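Ccl12, a CCR2 ligand, had a splenic transplant effect that differed between the subsets by the interaction test, by -3.69 (CD8 effect minus CD4 effect, log2; limma's adjusted p = 0.00270). Allogeneic splenic CD4 cells had -2.28 and -2.51, the second below background on a dim array. The other 8 splenic arrays lay between -6.60 and -5.27, all below background. The adjusted p ran from 0.000992 to 0.956 over the 24 alternatives and passed under 21 of them. It did not pass with normexp and quantile normalization (-0.75, adjusted p = 0.238) or with a common signal floor (-0.11, adjusted p = 0.956). With the slide as a block the term was -3.65 (adjusted p = 0.00324), within slide 1 it was -4.30 and within slide 2 it was -3.25, where limma's test did not pass (adjusted p = 0.239). Each slide has groups of 1 array, assumed to vary like the others. Every splenic value of Ccl12 on slide 2 was below background, so no direction is read from that slide.

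In the 1 group of 4 arrays, ovarian CD8 cells, 6 tests for an array far from the others were made, 1 per chemokine, and 0 arrays stood apart by Dixon's criterion.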

How the results depend on the processing

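Counts of members called are given over 5 tested. Between ovarian CD8 and CD4 cells the count was 4, and it was 1 within slide 2 alone and 2 without the 2 dimmest arrays. Leaving out 1 array gave 2 to 4. Over 20 alternatives Ccl7 passed in 20, Ccl12 in 19, Ccl2 in 17, Ccl17 in 16 and Ccl8 in 6. In splenic CD4 cells, allogeneic against syngeneic, the count was 2, and it was 1 with normexp and quantile normalization, 4 within slide 1, 0 within slide 2, 0 with only the groups compared, 1 with array weights and 0 with a common signal floor. Leaving out 1 array gave 1 to 3. In splenic CD8 cells it was 0, against 2 within slide 1, 4 with array weights, 2 without the dimmest arrays and 0 to 1 with 1 array left out.

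Between allogeneic splenic CD8 and CD4 cells the count was 1, and it was 0 with normexp, 2 with no filter, 4 with the slide as a block, 4 within slide 1, 0 within slide 2, 3 without the dimmest arrays, 0 with the floor and 1 to 3 with 1 array left out. The difference of Ccl17 turned there to 0.0278 with normexp (adjusted p = 0.911). For the interaction it was 1, against 0 with normexp, 3 with the slide block, 3 within slide 1, 0 within slide 2, 3 without the dimmest arrays, 0 with the floor and 1 to 3 with 1 array left out. Between syngeneic splenic CD8 and CD4 cells it was 0 under every alternative run. The number of chemokines with separate arrays in ovarian against splenic CD8 cells was 5, against 2 with the floor and 5 to 5 with 1 array left out; in CD4 cells it was 5, against 4 with the floor. The causes were not tested. Within a slide the groups of 1 array were assumed to vary like the others, so these counts are no test of the calls. The floor and the left-out dimmest arrays were chosen after seeing the data.

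Replicate numbers did not show that they pair samples: same-numbered arrays correlated between -0.44 and 0.46 in their deviations. With the replicate number as a block the count was 3 between allogeneic splenic CD8 and CD4 cells and 2 for the interaction. A filter asking for all 16 arrays left no member. Signal near background limits every splenic value of Ccl7 and Ccl12 and all values of Ccl22.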
